A study of Mus musculus with 4 samples.

Results

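The transcripts described here are those of 10 mouse genes of the NRF2 antioxidant pathway and of glutathione synthesis: Nfe2l2, Keap1, Gclc, Gclm, Abcc1, Osgin1, Hmox1, Txnrd1, Srxn1 and Gsr. They were chosen by gene symbol, and every probe set that the array annotation gives to one of them was taken, which gave 10 of the 12393 genes with a single symbol in the table and 19 of its 22690 probe sets. YAMC stands for young adult mouse colon, an epithelial line that was immortalised conditionally, and these cells were used throughout. Cultures were either left without treatment (untreated) or kept for 16 h in a medium in which the probiotic bacterium Lactobacillus GG (LGG) had grown. Total RNA was profiled on 4 mouse 430A arrays, 2 of each kind. By their titles, the arrays fall on 2 dates, here date 1 and date 2, with 1 untreated and 1 LGG array on each. Neither the meaning of the dates nor whether separate cultures were used is given in the labels, and the p-values therefore measure only the spread between these arrays, which may be technical. Cells given unconditioned medium were not analysed here. Of the 19 probe sets, 18 had a value on all arrays and a mean intensity of 101 or more, and these were tested. The other, 1419942_at for Srxn1, had values only at date 2.

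NRF2, encoded by Nfe2l2, is a transcription factor that induces genes of antioxidant defence and detoxification. In resting cells the adaptor KEAP1 presents NRF2 to a CUL3 ubiquitin ligase for degradation, and oxidants or electrophiles that modify cysteines of KEAP1 let NRF2 accumulate. NRF2 then pairs with a small MAF protein and binds antioxidant response elements near genes such as Gclc and Gclm, whose products together make the enzyme that limits glutathione synthesis. In the gut, this pathway is known for protecting the epithelium against oxidants and xenobiotics.

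The core of the antioxidant response element, TGACNNNGC, was looked up in the RefSeq promoter table (GRCm38.p6), which holds windows of 300 bases, from 250 before to 50 after a gene's start. The table had 8 windows for 6 of the genes: Nfe2l2, Keap1, Gclm, Osgin1, Srxn1 and 3 starts of Txnrd1. On either strand, 4 of these windows held a match, in Nfe2l2, Gclm, Srxn1 and 1 of the 3 of Txnrd1, against 12.4% of all 32851 windows. None of the 4 matches overlapped the AP-1 motif TGACTCA, searched on both strands. The matches are shown because this is the sequence NRF2 is known to bind, with the match in capitals and the gene's strand written 5′ to 3′. They lie at chr2:75704869-75704913 (minus strand) for Nfe2l2, chr3:122245397-122245457 (plus) for Gclm, chr10:82859088-82859148 (plus) for Txnrd1 and chr2:152105542-152105571 (plus) for Srxn1.
Nfe2l2: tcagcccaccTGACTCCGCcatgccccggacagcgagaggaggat
Gclm: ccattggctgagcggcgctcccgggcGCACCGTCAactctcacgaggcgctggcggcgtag
Txnrd1: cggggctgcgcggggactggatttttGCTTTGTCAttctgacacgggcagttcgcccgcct
Srxn1: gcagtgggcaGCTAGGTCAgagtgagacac
In Nfe2l2 the motif reads along the gene's strand and begins 240 bases before the start. In the other 3 it lies on the opposite strand, where it reads TGACGGTGC in Gclm, TGACAAAGC in Txnrd1 and TGACCTAGC in Srxn1. These matches begin 134 bases before the start in Gclm and 92 before it in Txnrd1, while that of Srxn1 begins at base 29 of the transcript. A match describes these letters only, and binding was not measured.

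LGG treated cells were set against untreated cells to see how these transcripts differ after 16 h of treatment. For both subunits of glutamate-cysteine ligase, the glutathione conjugate pump Abcc1 and the growth inhibitor Osgin1, 1 probe set each rose about 2-fold. The second probe sets of Gclc and Abcc1 did not pass. The other 6 genes did not pass. Of the 18 probe sets tested, 4 were higher (22.2%), 1 each of Gclc, Gclm, Abcc1 and Osgin1, and 0 were lower, by limma with date as a block at a Benjamini-Hochberg adjusted p under 0.05. Over all 10333 probe sets tested, 6.55% passed by the same rule, 2.69% being higher and 3.86% lower. Osgin1 reached the filter through its LGG arrays only, so it was tested because it was high there. Of the 17 probe sets that reached it in both groups 3 were higher, against 249 of 9892 over the table. At an unadjusted p under 0.05 there were 8 of the 18, against 20.5% of all probe sets tested. The median log2 change of the 18 was 0.26, or 0.08 at date 1 and 0.48 at date 2, against 0.01, -0.04 and 0.05 for all probe sets tested. Both LGG arrays lay above both untreated arrays for 7 of the 18 (23.4% of all probe sets tested) and below them for 3 (23.6%), and the groups overlapped for 8. Within each date, 8 of the 18 were higher with LGG both times (32.3% of all probe sets tested). Of the rest, 3 were lower both times and 7 changed sign, counts for which the shares of all probe sets are not given here.

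No call held in every fit with the block or an array left out. Without the block 0 of the 18 passed (lowest adjusted p = 0.0533, for Abcc1), against 0.939% of all probe sets, and 7 were under 0.05 unadjusted, against 15.0%. In fits without the block that left out 1 array, 0 passed without the untreated array of date 1 (5 unadjusted, against 7.06% of all probe sets) and 0 without that of date 2 (2 unadjusted, against 7.92%), and in neither fit did any probe set of the table pass. Without the LGG array of date 1, Abcc1 passed, which made 1 of 18 against 6.17% of all probe sets. Without that of date 2, Gclm and Abcc1 passed, against 3.13%. With 2 arrays against 2, an exact permutation test that ignores the date cannot give a two-sided p under 0.333. Keeping the date pairs leaves still fewer rearrangements.

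**Figure D1:**
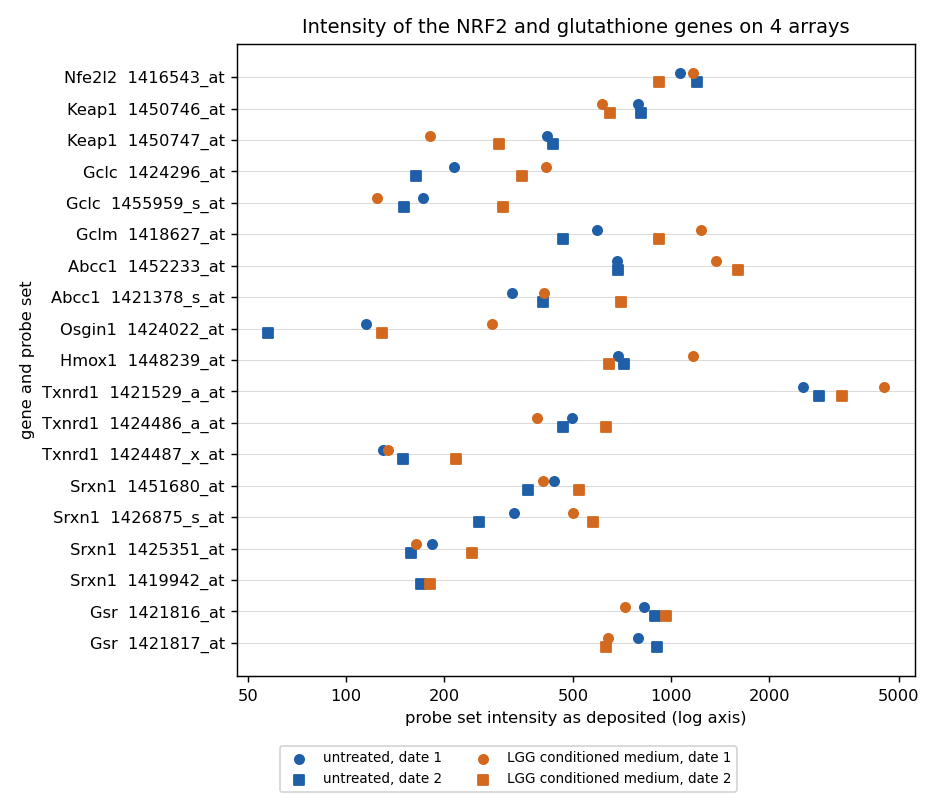
Deposited intensity (log axis) of each of the 19 probe sets on each array, untreated in blue and LGG in orange, with circles for date 1 and squares for date 2. For Gclm, for 1452233_at of Abcc1 and for 1424296_at of Gclc both orange points lie to the right of both blue points, and for both probe sets of Keap1 they lie to the left.

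Glutathione synthesis begins with the ligation of glutamate and cysteine. Gclm, the regulatory subunit that makes this ligase more efficient, has 1 probe set (1418627_at), which measured 591.4 (date 1) and 465.7 (date 2) in untreated cells and 1235.2 and 917.2 with LGG. Both LGG arrays were well above both untreated arrays, and within each group the array of date 1 was the higher. The ratio of LGG to untreated was 2.09 at date 1 and 1.97 at date 2, and the fitted log2 change was 0.99 ± 0.22 (SE, n = 2 arrays per group; adjusted p = 0.016).

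Gclc is the catalytic subunit of the ligase, and its probe sets did not move alike. The first (1424296_at) measured 214.5 and 164.5 untreated and 413.2 and 347.4 with LGG, a ratio of 1.93 at date 1 and 2.11 at date 2. The groups did not overlap, and the log2 change was 0.92 ± 0.25 (adjusted p = 0.0402). The second (1455959_s_at, a probe set that by its suffix can match more than 1 transcript) measured 172.6 and 150.4 untreated and 124.8 and 304.7 with LGG. Here the LGG array of date 1 was the lowest of the 4 and that of date 2 the highest, and the log2 change was 0.26 (95% interval -0.42 to 0.93, adjusted p = 0.711). The call of the gene therefore depends on the probe set. With both averaged, an alternative chosen after the data were seen, Gclc did not pass, its log2 change being 0.59 (adjusted p = 0.104), while Abcc1, Gclm and Osgin1 did, in a fit that called 6.54% of all genes higher.

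By the shape of its values over the 4 arrays, the gene most like Gclm among the 6952 genes tested was Gclc. Likeness was the Euclidean distance between log2 values centred on each gene's mean, with each gene represented by its brightest probe set, 1424296_at for Gclc. The distance was 0.15, and the next were Trim47 (0.15) and Nmt2 (0.17). The genes most like Gclc were Nmt2 (0.08), Herpud1 (0.09) and Pcbp4 (0.14), with Gclm in place 4. These 4 neighbours passed the test too, with log2 changes from 0.84 for Pcbp4 to 1.03 for Trim47. This adds no support, since they were picked for likeness to genes that passed on the same arrays. The second Gclc probe set, whose change had opposite signs at the dates, was not used here. A distance over 4 arrays mostly says that genes changed by a like amount at both dates.

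Abcc1, also known as MRP1, pumps glutathione conjugates and oxidised glutathione out of the cell. Its probe set 1452233_at measured 680.8 and 685.9 untreated and 1367.7 and 1606.7 with LGG. The untreated arrays were nearly equal and both LGG arrays were far above them, with ratios of 2.01 and 2.34. The log2 change of 1.09 ± 0.21 (adjusted p = 0.00786) was the largest among the 18 probe sets on this scale, although Osgin1 had a larger one (1.18 against 1.11) with a pseudocount of 1% of the trimmed mean, and 1.12% of all probe sets tested had a larger one. The other probe set (1421378_s_at) measured 323.4 and 401.8 untreated and 405.7 and 701.5 with LGG. Its groups touched without overlapping, since the LGG array of date 1 was just above the untreated array of date 2, and its log2 change of 0.54 (95% interval 0.02 to 1.05) did not pass (adjusted p = 0.225).

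Osgin1 encodes a growth inhibitor induced by oxidative stress, and its untreated mean of 86.4 was below the filter of 101, which it passed only through the LGG arrays. It measured 115.1 and 57.6 untreated and 281 and 129.4 with LGG. Each date showed a rise, by ratios of 2.44 and 2.25, but date 2 was lower than date 1 in both groups, so that the untreated array of date 1 came close to the LGG array of date 2. The log2 change was 1.01 ± 0.27 (adjusted p = 0.0431), on a scale of log2(intensity + 25.2) that understates the change of dim genes. It was 0.52 without the LGG array of date 1, 1.51 without that of date 2, 1.39 without the untreated array of date 1 and 0.63 without that of date 2, none of which passed.

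**Figure D2:**
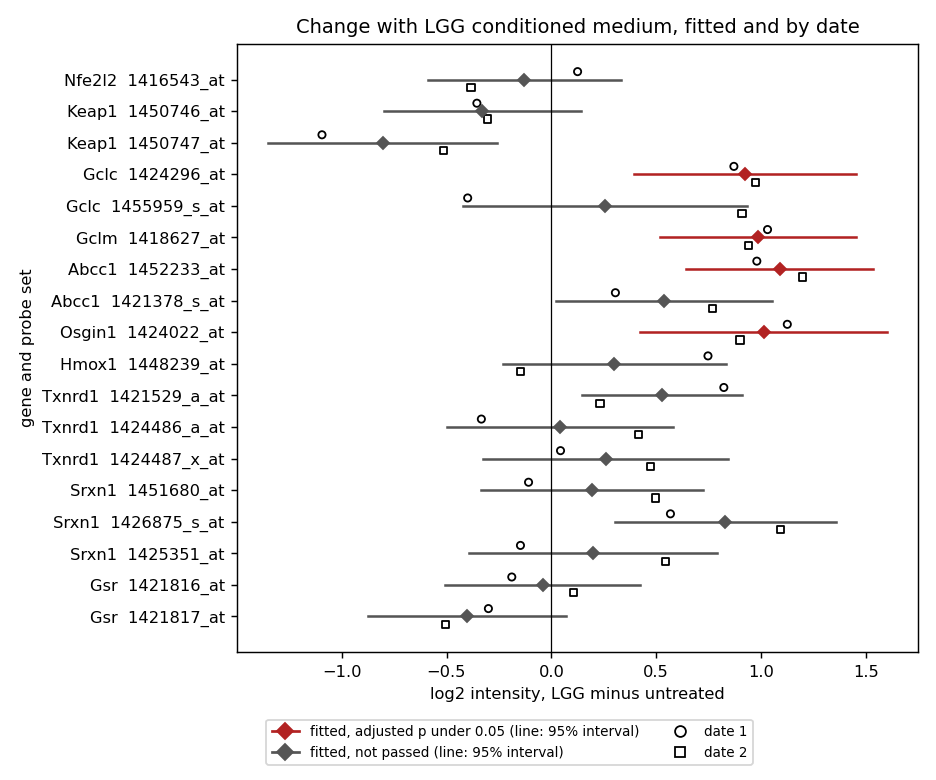
Fitted log2 change (diamond) with its 95% interval from limma for the 18 probe sets tested, and the difference at date 1 (circle) and date 2 (square), LGG minus untreated on log2(intensity + 25.2). The 4 that passed (red) lie between 0.92 and 1.09 with both dates close together, and 7 of the others have the dates on opposite sides of 0.

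Of the regulators, the transcript of NRF2 itself did not pass. Nfe2l2 measured 1062.8 and 1202.6 untreated and 1161.5 and 916.4 with LGG. The LGG array of date 1 lay between the untreated arrays and that of date 2 below both, and the log2 change was -0.13 (95% interval -0.59 to 0.33, adjusted p = 0.796). NRF2 is controlled mainly through the stability of the protein, which arrays do not measure.

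Keap1, the inhibitor of NRF2, was lower on both LGG arrays than on both untreated arrays with each of its probe sets, although neither passed. The probe set 1450747_at measured 414.8 and 433.3 untreated and 180.9 and 295.6 with LGG, 2.29-fold lower at date 1 and 1.47-fold lower at date 2. Its log2 change was -0.80 ± 0.25 (95% interval -1.35 to -0.26), short of the threshold (adjusted p = 0.0791). The other (1450746_at) measured 790.6 and 806.7 untreated and 612.6 and 649.1 with LGG, a log2 change of -0.33 (95% interval -0.80 to 0.14, adjusted p = 0.436). Cul3, the scaffold of the ligase that KEAP1 serves, was looked at after its values were seen. Its brightest probe set had a log2 change of -0.11, and 2 others had -0.60 and -0.73 with both LGG arrays below both untreated arrays. None passed (adjusted p = 0.828, 0.188 and 0.0801).

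Hmox1, heme oxygenase 1, breaks heme down to biliverdin, iron and carbon monoxide. It measured 685.3 and 715 untreated and 1167.5 and 642.7 with LGG. The LGG array of date 1 stood apart from the other 3, which lay close together, so that the ratio was 1.70 at date 1 and 0.90 at date 2. The log2 change was 0.30 (95% interval -0.23 to 0.83, adjusted p = 0.547), 0.72 without the LGG array of date 2 and -0.12 without that of date 1.

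The enzymes that regenerate reduced thiols gave mixed values. Txnrd1, cytosolic thioredoxin reductase, had 3 probe sets. The first (1421529_a_at) measured 2533.4 and 2839.4 untreated and 4500.8 and 3339.8 with LGG. The groups did not overlap, but the ratio was 1.78 at date 1 and 1.18 at date 2, and the log2 change of 0.53 (95% interval 0.15 to 0.91) did not pass (adjusted p = 0.1). The other Txnrd1 probe sets, 1424486_a_at and 1424487_x_at, the latter with probes that by its suffix may match other transcripts, had overlapping groups, with changes of 0.04 and 0.26 on the log2 scale (adjusted p = 0.954 and 0.654).

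Srxn1, sulfiredoxin, repairs overoxidised peroxiredoxins. Its probe set 1426875_s_at measured 327.7 and 256.4 untreated and 498.1 and 575.7 with LGG, ratios of 1.52 and 2.25. Both LGG arrays were above both untreated arrays, and the log2 change of 0.83 ± 0.24 came near the threshold (95% interval 0.30 to 1.36, adjusted p = 0.0623). The probe sets 1451680_at and 1425351_at changed sign between the dates (fitted 0.19 and 0.20, adjusted p = 0.722 and 0.748), with the LGG array below the untreated array at date 1 and above it at date 2 for both. At date 2, the only date with values for 1419942_at, the untreated array measured 170.6 and the LGG array 181.6.

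Gsr, glutathione reductase, recycles oxidised glutathione. Its probe set 1421817_at measured 791.6 and 902.4 untreated and 638.2 and 628.6 with LGG. Both LGG arrays were below both untreated arrays, and the log2 change was -0.40 (95% interval -0.87 to 0.07, adjusted p = 0.328). The other (1421816_at) overlapped between the groups, with a log2 change of -0.04 (95% interval -0.51 to 0.42, adjusted p = 0.947). Neither passed, and intervals from so few arrays do not exclude a larger change.

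**Figure D3:**
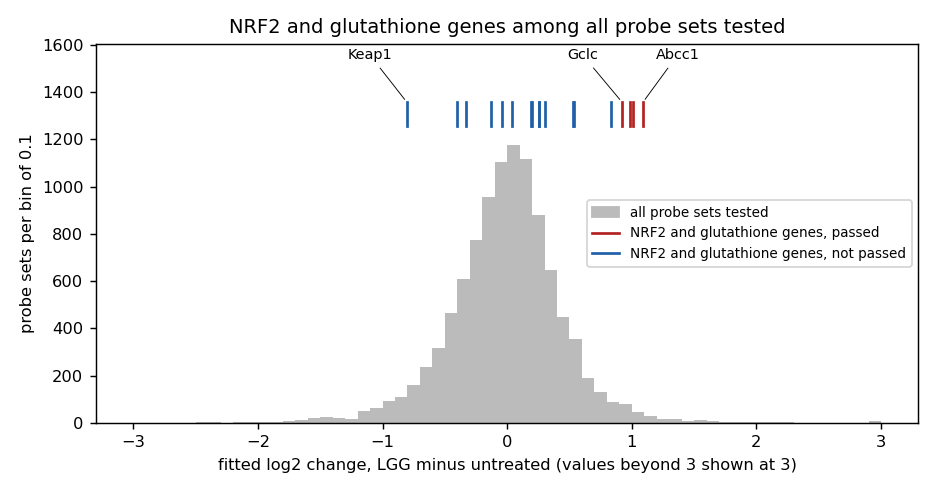
Fitted log2 change of all 10333 probe sets tested (grey, in bins of 0.1) with the 18 probe sets of the 10 genes as ticks, red where the adjusted p was under 0.05 and blue elsewhere. The ticks spread from -0.80 for 1 Keap1 probe set to 1.09 for Abcc1, and the 4 red ones lie on the far right flank of the grey distribution.

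Between the dates, with the group in the fit, 0 of the 18 probe sets passed by limma, against 0.513% of all probe sets tested. At an unadjusted p under 0.05 there were 2, a count for which the share of all probe sets is not given here. These were Osgin1, lower at date 2 by a log2 difference of -0.87 ± 0.27 (adjusted p = 0.24), and 1421378_s_at of Abcc1, higher at date 2 by 0.52 ± 0.24 (adjusted p = 0.431).

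Other genes of the pathway were taken from 3 lists, 1 probe set per gene, the brightest. Of all 6952 genes tested this way, 3.01% were higher and 3.50% lower, and their median log2 change was 0.03. Of 28 other NRF2 targets, 20 had a probe set and 17 were tested. Of these 1 rose, 1 fell and 15 did not pass, with a median log2 change of 0.08. At an unadjusted p under 0.05 there were 4, against 20.5% of all probe sets tested. That share, set beside all 3 lists, counts probe sets and not genes by their brightest. Blvrb, which reduces biliverdin, rose from 90 and 88.3 to 178.6 and 275.8 (log2 change 1.11 ± 0.28, adjusted p = 0.0308), both LGG arrays being above both untreated ones. Its untreated mean of 89.2 was below the filter, so it was tested only through the group where it was high. Ephx1, microsomal epoxide hydrolase, fell from 2864.8 and 3015.3 to 1628.8 and 1949.9 (log2 change -0.71 ± 0.17, adjusted p = 0.0264). The quinone reductase gene Nqo1 measured 245 and 262.5 untreated and 525.8 and 415.3 with LGG, without overlap, and did not pass (0.82 ± 0.24, adjusted p = 0.0648). Me1, malic enzyme, which supplies NADPH, had a log2 change of 0.59 with its brightest probe set (adjusted p = 0.138) and 0.89 with another, which passed (adjusted p = 0.0381). Cbr1 (0.30) and Taldo1 (0.27) did not pass.

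Of 16 genes that supply, use or break down glutathione, 15 had a probe set and 11 were tested. Of these 1 rose, 0 fell and 10 did not pass, with a median log2 change of 0.01. At an unadjusted p under 0.05 there were 2, against 20.5% of all probe sets tested. Slc3a2, the heavy chain of the cystine transporter and of other amino acid transporters, rose from 3011.2 and 2898.9 to 4787.6 and 5511.1 (0.79 ± 0.15, adjusted p = 0.00852). Its light chain Slc7a11, the cystine carrier named here after its values were seen, measured 106.4 and 118.9 untreated and 104.9 and 122.5 with LGG, a log2 change of 0.01 (adjusted p = 0.991). Chac1, which degrades glutathione, measured 788.9 and 722 untreated and 1804 and 921.9 with LGG. The difference was uneven between the dates and did not pass (0.75 ± 0.24, adjusted p = 0.0761). Gss, which completes glutathione, had -0.32, Glrx 0.24 and Gpx1 -0.20, none of which passed.

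Of 15 regulators and partners of NRF2, 13 had a probe set and 11 were tested. Of these 3 rose, 0 fell and 8 did not pass, with a median log2 change of 0.46. At an unadjusted p under 0.05 there were 6, against 20.5% of all probe sets tested. Maff, a small MAF that pairs with NRF2, measured 102.9 and 97.4 untreated and 540.8 and 152.9 with LGG. The LGG array of date 1 was far above the other 3, and the log2 change was 1.34 ± 0.34 (adjusted p = 0.0321). Maff too was tested only through its LGG arrays, with an untreated mean of 100.2, and it did not pass with quantile normalization (adjusted p = 0.0531). Gsk3b, a kinase that marks NRF2 for degradation independently of KEAP1, rose from 402 and 243.3 to 762.4 and 531.8 (0.97 ± 0.23, adjusted p = 0.0247). Nfe2l1, which encodes the related factor NRF1, rose from 1013.7 and 909 to 1553.2 and 1813.8 (0.79 ± 0.20, adjusted p = 0.0342). Btrc, a ligase adaptor on the same route as Gsk3b, had 0.82, the small MAF gene Mafk 0.76, the KEAP1-binding autophagy receptor gene Sqstm1 0.46 and Mafg -0.12, and these 4 did not pass (adjusted p = 0.0609, 0.0847, 0.125 and 0.822).

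No gene of these 3 lists passed without date as a block (3, 2 and 5 genes at an unadjusted p under 0.05 in the order given) or without either untreated array (2, 1 and 2 genes unadjusted in each case). The shares of all probe sets given above for the same fits are the background of these counts and of those that follow with an LGG array left out. They count probe sets, not genes, and so are only a rough background. Without the LGG array of date 1 the genes that passed numbered 2, 1 and 2, and without that of date 2 they numbered 0, 1 and 1. Neither Ephx1 nor Gsk3b passed in any of these 4 fits. Maff had a log2 change of 0.51 without the LGG array of date 1 (adjusted p = 0.398) and 2.17 without that of date 2, and Gsk3b 0.63 without the untreated array of date 2. With the mean of all probe sets of a gene in place of the brightest, 4, 2 and 6 genes passed, against 6.54% of all genes higher and 7.09% lower.

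**Figure D4:**
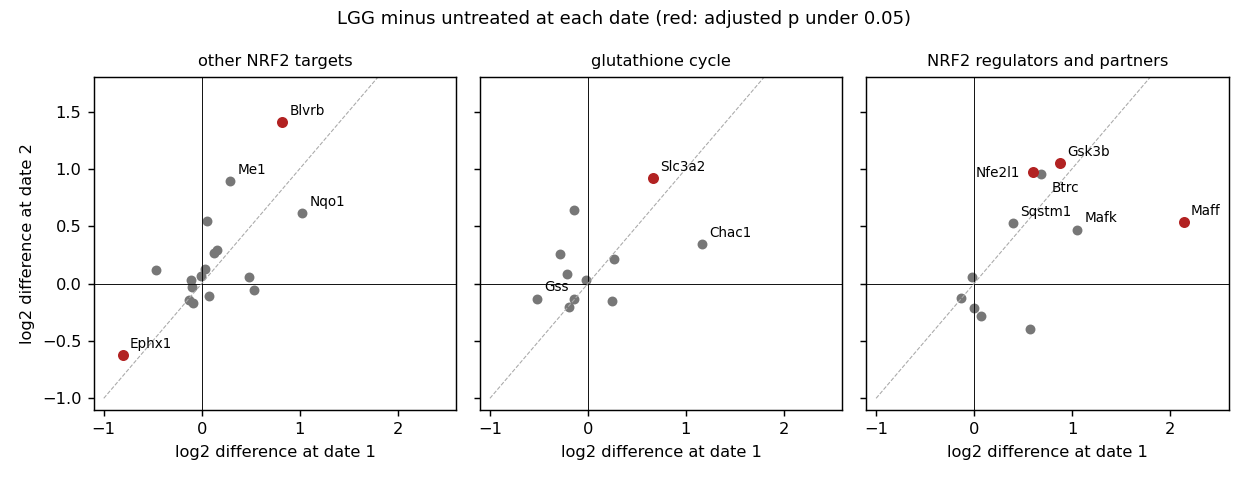
Difference on log2(intensity + 25.2), LGG minus untreated, at date 1 (horizontal) and date 2 (vertical) for the tested genes of the 3 lists, with equality dashed and genes with an adjusted p under 0.05 in red. Blvrb, Slc3a2, Nfe2l1 and Gsk3b lie above 0.5 at both dates, as do Nqo1 and Btrc, which did not pass. Maff lies at 2.14 at date 1 and 0.54 at date 2.

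As a check of the labelled cell type, of 14 colon epithelial markers with values 3 passed the filter on dim probe sets. These were the keratins Krt8, Krt18 and Krt19. Among those below the filter, Epcam measured 6 to 9, Cdh1 8.7 to 41.8 and Vil1 1.7 to 10.5 on the 4 arrays. Of 8 mesenchymal markers 5 passed the filter, Vim among them. In the order date 1, date 2, the summed intensity of all 8 was 32692.6 and 27851.7 untreated and 24439.6 and 22847.9 with LGG. Dcn was lower (adjusted p = 0.0014). The epithelial sum was 2577.6 and 3399.4 untreated and 3478.8 and 2971.2 with LGG. It was higher with LGG at date 1 and lower at date 2. On each array the epithelial sum was below the mesenchymal sum, so these markers bear out the epithelial label only in part. The immune sum over 6 genes was 474.5 and 366.3 untreated and 623.9 and 466.8 with LGG, with Ptprc, which marks all leukocytes, at 15.4 to 37.2. Among the immune markers Cd68 was higher (adjusted p = 0.0314), Lyz2, below the filter, went from 116.7 and 146.9 to 98 and 14.7, and the other 4 overlapped between the groups. The endothelial sum over 4 genes was 398.3 and 309 untreated and 487 and 452.2 with LGG. Kdr, which carries most of that sum with LGG, was higher (adjusted p = 0.00924), while Tek went from 149.4 and 96.1 to 36.8 and 51.4 and Pecam1 from 48 and 34.1 to 12.1 and 21.3, both below the filter, and Cdh5 overlapped. The ratio of 3′ to 5′ signal, a measure of RNA integrity, went with LGG from 0.805 to 0.931 for Gapdh and from 1.11 to 1.20 for Actb at date 1, and from 0.784 to 0.768 and 1.08 to 1.05 at date 2. The part of these in the values above was not tested. All arrays are labelled as a single cell line. In a bulk sample of it, fewer cells with a transcript and less of it per cell cannot be told apart.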

How the data were processed

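RNA of untreated and LGG treated YAMC cells was measured on 4 arrays. The authors deposited linear intensity values, 1 column per array; the software, scaling and filters are not given in the sources used here. Trimmed means (2% off each end) lay between 500.1 and 513.5, so the values were used as deposited. Both arrays of date 1 lacked values for the same 6307 probe sets. The groups and dates came from the titles. The dates pair the arrays; differences between dates correlated at 0.27 between the groups across probe sets. After 64 control probe sets were set aside, 16319 had all values, and 10333 reached a mean of 101, which is 20% of 504.9, the trimmed means' geometric average. These were tested on log2(intensity + 25.2). The tests used limma 3.58.1 in R 4.3.3, with group and date as terms and an intensity trend, and p-values were adjusted by Benjamini-Hochberg across the tested probe sets. The fit had 1 residual and 12.5 prior degrees of freedom, so p-values rest on variance shared across genes. Names came from the platform annotation; of 22690 probe sets 20393 had 1 symbol, 691 several and 1606 none, and 20364 matched RefSeq by Entrez identifier with 0 symbols changed. All probe sets of the 10 genes are described; of each other list, the genes that passed and up to 4 more of largest change among those whose sign was shared by the dates are named, with exceptions stated. The number of arrays limits the precision. The genes and lists were chosen with earlier results of these data known. Alternatives were the block, scaling, pseudocount, filter, variance model, probe set per gene and leaving out each array. Figures were drawn with matplotlib 3.10.9.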

Additional observations from a re-analysis of the deposited data

Results flagged for a closer look

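For 7 of the 18 probe sets tested the LGG array was above the untreated array at 1 date and below it at the other. Of all probe sets tested, 32.3% were higher with LGG at both dates, and the share that changed sign is not given here. The difference between the dates was not tested, since 4 arrays leave no degree of freedom for it. On the log2 scale, LGG minus untreated, Hmox1 had 0.75 at date 1 and -0.15 at date 2, and Nfe2l2 had 0.13 and -0.38. The others ran the opposite way. The second Gclc probe set (1455959_s_at) had -0.40 at date 1 and 0.91 at date 2, and Txnrd1 (1424486_a_at) had -0.33 and 0.42. Srxn1 had -0.11 and 0.50 with 1451680_at and -0.15 and 0.55 with 1425351_at, and Gsr (1421816_at) had -0.19 and 0.11.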

How the results depend on the processing

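Low signal limits Osgin1, which had an adjusted p of 0.0538 with a pseudocount of 1% and was not tested with the filter at 50%, and Gclc lost its call narrowly with that filter (0.0546) and without the intensity trend (0.0524). Quantile normalization, median scaling, a pseudocount of 1% or 20% of the trimmed mean and robust hyperparameters kept each count of calls within 1.5 times its value, although Maff lost its call with quantile normalization (adjusted p = 0.0531). Without the replicate block, that is with the date left out, 97 of all probe sets passed in place of 677, and 0 of the 18 and 0 of each list. With no filter 0 of 16319 passed (2296 at an unadjusted p under 0.05), 0 of the 18 (7 unadjusted) and 0 of each list. With the filter at 50% of the trimmed mean 2 of 14 probe sets of the 10 genes and 1 other NRF2 target passed, against 6.64% of all probe sets. Without the intensity trend 378 of all probe sets, 1 other NRF2 target, 0 genes of the glutathione list and 1 regulator passed. With 1 array left out and no block, where the lone array of a group is assumed to vary like the other group, the counts were 0 to 638 over all probe sets, 0 to 2 for the 18, 0 to 2 for other NRF2 targets, 0 to 1 for the glutathione list and 0 to 2 for the regulators. With the mean of a gene's probe sets, 4 other targets, 2 glutathione genes and 6 regulators passed, in a fit with 287 prior degrees of freedom in place of 12.5.

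The sign of a log2 change reversed 8 times, each time with 1 array left out and in no probe set that passed. Over these fits the log2 change ran from -0.30 to 0.038 for Nfe2l2, from -0.31 to 0.82 for Gclc 1455959_s_at, from -0.12 to 0.72 for Hmox1, from -0.29 to 0.38 for Txnrd1 1424486_a_at, from -0.042 to 0.56 for Txnrd1 1424487_x_at, from -0.055 to 0.45 for Srxn1 1425351_at and from -0.24 to 0.16 for Gsr 1421816_at. The reversal came without the LGG array of date 2, except for Hmox1 (without that of date 1) and Gsr (0.16 without that of date 1 and 0.012 without the untreated array of date 2). The cause was not tested. The date comparison was not run with an array left out, and its count of 0 held under the other alternatives run with the date in the fit.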
